A study of Homo sapiens with 52 samples.

Results

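Contact with the nuclear lamina was examined at 5 human gene clusters whose genes are known from skin and hair: the epidermal differentiation complex (EDC), the type II keratins, the type I keratins with keratin-associated proteins (KRTAPs), and a pair of KRTAP clusters on chromosome 21. The clusters were taken as the 100 kb bins overlapping fixed windows of the human genome build hg19. These were 1:151900001-153600000 for the EDC, 12:52500001-53400000 for the type II keratins and 17:38800001-39800000 for the type I keratins. The inner KRTAP cluster was 21:31500001-32300000 and the outer one, nearer the chromosome end, 21:45900001-46200000. Flanks of 2 Mb on each side were added. The rest of a chromosome, where named, is all its bins with a value outside the cluster, so it includes the flanks. The windows held 47 bins and the flanks 199 bins with a value, or 246 of the 26584 bins with a value in the series. The rule for the windows uses positions and no measured value, although earlier results of these data were known when the clusters were chosen.

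The cells were KBM7, an established human chronic myeloid leukaemia line, of clone 14 with a labelled ploidy of 2N. They carried Dam, an adenine methyltransferase, joined to Lamin B1 (DamID), so that DNA touching the lamina becomes methylated. Shield1, at 0.5 nM over 15 h, was used to induce the methylation, and the smallest cells positive for both Fucci cell cycle markers were sorted singly. All cells form 1 group from 1 clone without a control. Of the 52 labelled cells, 51 were analysed, and cell 47 was not analysed here. Each bin holds a ratio of observed to expected signal (OE), and a bin was called contacted at an OE of at least 1. Because the label is 2N, a call does not tell which copy of a chromosome touched the lamina, and copy numbers of single chromosomes were not examined. Because separate cultures are not named, all cells together count as 1 sample. SDs describe these cells, and no p-value is given. The ratios correspond to 50978 to 316463 recovered reads per cell (median 142540). A cell's contact covered 31.5% ± 3.56 (SD, n = 51) of all bins.

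The lamina is a protein mesh beneath the inner nuclear membrane, and the long domains that touch it are mostly poor in active genes. The EDC encodes proteins of the cornified envelope of the skin, among them filaggrin (FLG), involucrin (IVL) and loricrin (LORICRIN), and also many S100 calcium-binding proteins. Type I and type II keratins pair to form the intermediate filaments of epithelial cells, and KRTAPs embed keratin filaments in the hair shaft. Most of these genes serve epithelia, but the EDC also holds S100A8 and S100A9, which are abundant in myeloid cells. No RNA was measured, so whether a cluster was silent in these cells is not known from the data.

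In RefSeq on GRCh38.p14, used here only for gene names, order and promoters, the EDC runs from S100A10 to S100A1 and holds 63 protein-coding genes. S100A10 and S100A11 come first, followed by 7 fused-type S100 genes from TCHHL1 to CRNN, which include FLG. Next come 19 LCE genes, which encode late cornified envelope proteins, then IVL, the SPRR genes and LORICRIN, then PGLYRP3 and PGLYRP4, and last the remaining S100 genes. The type II block from KRT80 to KRT18 holds 27 keratins, including KRT18, which is itself of type I. The type I block from KRT24 to KRT17 holds 27 keratins and 34 KRTAPs. The inner block of chromosome 21, between CLDN8 and TIAM1, holds 33 KRTAPs from KRTAP24-1 to KRTAP19-8. The outer block, between TSPEAR and UBE2G2, holds 16 KRTAPs from KRTAP10-1 to KRTAP10-12. An hg19 annotation was not used here, so no gene is assigned to a single bin.

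Promoter letters are shown for 4 genes, so that KRTAP promoters from clusters of unlike lamina contact can be set side by side. Each is the gene whose content of A and T lies nearest the median of its family in that cluster (LCE, SPRR, IVL and LORICRIN for the EDC), and the families were picked after contact values were seen. The sequences are the 250 bases before the start, from RefSeq on GRCh38.p14, 5′ to 3′ on the gene's strand, with runs of at least 5 A or T in capitals. KRTAP13-2 (inner cluster, chr21:30372272-30372521, minus strand) and KRTAP10-8 (outer cluster, chr21:44611829-44612078, plus strand) come from the same chromosome. KRTAP4-8 (chr17:41098143-41098392, minus strand) comes from the type I cluster and LCE3C (chr1:152599984-152600233, plus strand) from the EDC. These positions are not comparable with the hg19 bins.
KRTAP13-2: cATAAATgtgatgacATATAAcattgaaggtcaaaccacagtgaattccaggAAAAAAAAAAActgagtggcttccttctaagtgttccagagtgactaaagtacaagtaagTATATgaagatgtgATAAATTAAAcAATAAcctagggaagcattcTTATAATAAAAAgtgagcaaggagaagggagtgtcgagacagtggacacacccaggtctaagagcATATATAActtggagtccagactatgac
KRTAP10-8: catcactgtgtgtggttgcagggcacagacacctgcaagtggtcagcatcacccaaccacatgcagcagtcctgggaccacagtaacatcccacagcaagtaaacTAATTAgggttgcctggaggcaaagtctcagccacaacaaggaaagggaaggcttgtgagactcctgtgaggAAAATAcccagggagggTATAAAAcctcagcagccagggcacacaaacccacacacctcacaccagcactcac
KRTAP4-8: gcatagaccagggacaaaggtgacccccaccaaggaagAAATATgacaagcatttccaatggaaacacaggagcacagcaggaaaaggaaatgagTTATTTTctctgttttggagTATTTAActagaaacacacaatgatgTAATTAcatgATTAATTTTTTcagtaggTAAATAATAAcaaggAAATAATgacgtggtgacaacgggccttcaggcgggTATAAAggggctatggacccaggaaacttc
LCE3C: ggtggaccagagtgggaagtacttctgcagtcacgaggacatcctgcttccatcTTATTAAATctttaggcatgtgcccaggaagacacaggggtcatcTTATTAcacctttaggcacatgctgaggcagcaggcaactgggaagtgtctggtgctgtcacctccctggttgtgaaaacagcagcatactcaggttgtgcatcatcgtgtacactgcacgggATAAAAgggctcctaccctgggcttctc

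The inner KRTAP promoters were the richest in A and T among the 5 blocks. Their median was 63.0% over 30 of 33 genes found in the table (range 55.6% to 71.6%), against 37.6% over 15841 protein-coding genes. The 33 KRTAP promoters found in the type I block were close behind, with a median of 59.6% (52.8% to 67.6%), and its 20 keratin promoters had 57.6%. The outer KRTAP promoters had 46.8% (37.6% to 55.6%, 15 genes), so they did not overlap the inner ones except at 55.6%. The type II keratins had 52.0% over the 14 of 27 genes found and the EDC 47.6% over 59 of 63. Within the EDC the 7 fused-type S100 promoters had 53.2% and the 16 S100 promoters 41.0%. GATC, the sequence that Dam methylates, was present in 33.3% of inner and 26.7% of outer KRTAP promoters, and in 34.0% of all. It was present in 71.4% of the type II keratin promoters and in 39.0% of those of the EDC, where the SPRR, IVL and LORICRIN group had 72.7%. In the type I block it was present in 10.0% of keratin and 39.4% of KRTAP promoters. GATC reads the same on both strands.

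**Figure D1:**
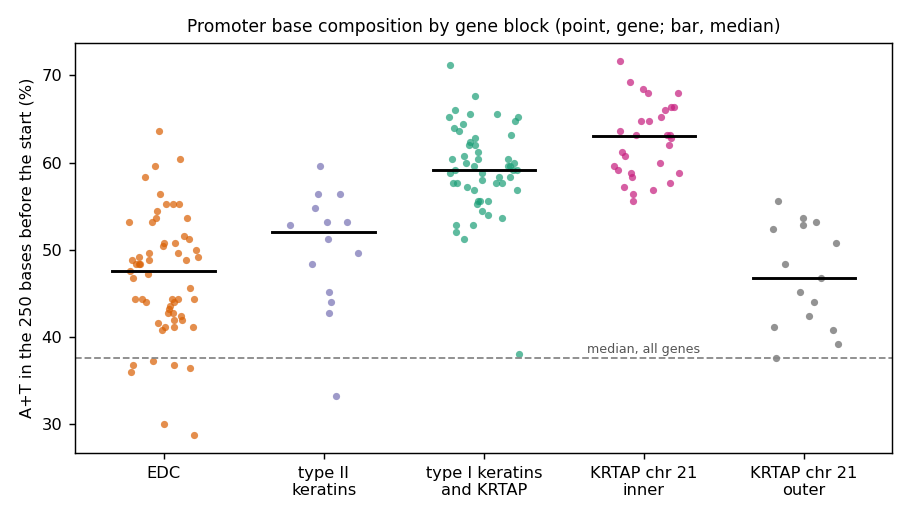
Content of A and T in the 250 bases before the start of each gene, in percent, for the 5 gene blocks (1 point per gene, bars at block medians, dashed line at the median of all protein-coding genes, 37.6%). The inner KRTAP block of chromosome 21 sits highest with a median of 63.0%, next to the type I block with its KRTAPs, while the outer KRTAP block has a median of 46.8%.

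The 5 clusters differed widely in lamina contact. The inner KRTAP cluster of chromosome 21 was contacted in 83.6% ± 25.6 of its bins (SD, n = 51 cells). The EDC was contacted in 4.50% ± 10.2, the outer KRTAP cluster in 0.654% ± 4.67, the type II keratins in 0.436% ± 3.11 and the type I keratins in none. Over all bins and cells, 31.5% of the values were contacts. Of the 47 cluster bins, 7 were in contact in 80% of cells or more, all in the inner KRTAP cluster, whereas 25 were contacted in no cell. Over the genome, 20.9% of bins reached 80% of cells and 38.7% in no cell. A further 14 cluster bins were contacted in 1 cell to under 20% of cells, against 18.3% of all bins. Of the flank bins, 162 of 199 were contacted in no cell. No read of any cell fell in 7 cluster bins and 51 flank bins, for which a limit cannot be given without an expected number. Over the series this held for 1985 of 26584 bins.

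**Figure D2:**
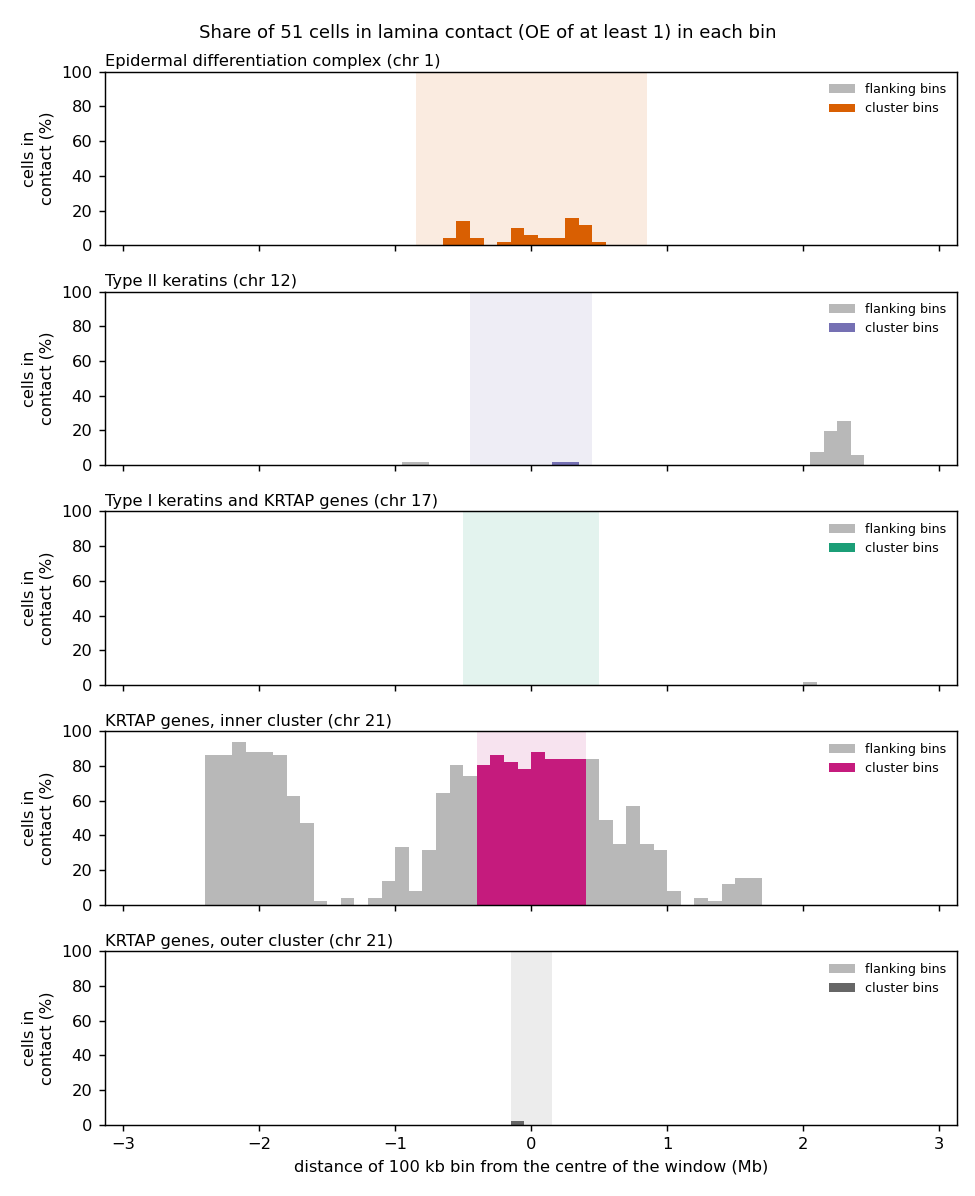
Share of the 51 cells in contact in each 100 kb bin, in percent, against the distance of the bin from the centre of the window in Mb (coloured bars, cluster bins; grey bars, flanking bins; shading, the window). The inner KRTAP cluster forms a plateau between 78.4% and 88.2%, the EDC reaches 15.7% at most, and the other windows are nearly empty.

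The inner KRTAP cluster of chromosome 21 was in contact along its whole length in most cells. Its 8 bins were contacted in 40 to 45 of the 51 cells each, with the highest count at 31900001-32000000 and the lowest at 31800001-31900000. In 7 of the 8 bins at least 80% of cells were in contact, against 11.5% of the measured bins of chromosome 21, where 23.8% of all bin and cell pairs were contacts. In single cells the share of contacted bins ran from 0% through a median of 100% to 100%. All 8 bins were contacted in 31 cells, some in 19 and none in 1. Among the partly contacted clusters, exactly 4 of 8 bins were contacted in 6 cells. The calls rest on 738 to 1014 reads per bin over all cells, and an OE of 1 corresponds to 5.40 to 6.98 reads per bin in the median cell. The 31 fully contacted cells had a median of 152300 reads. After all cells were thinned to 50978 reads, 19 cells were in contact in all 8 bins and the contacted share was 80.4%, and 4 bins rather than 7 reached 80% of cells. At an OE of at least 2, 13 cells were in contact in all 8 bins and no bin reached 80% of cells.

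Cell 41 was without contact across the inner cluster. It held 4 reads there and an OE over the cluster of 0.0807, the lowest of the cells, against a median of 2.55 and a highest value of 4.21. It also had no contact in either flank and in 5.46% of the rest of chromosome 21, the lowest such share of all cells. Its 142540 reads were the median of the cells, and its genome share of 28.5% was within 1 SD of the mean. Cell 39 had 2 contacted bins, with 6.90% of the rest of chromosome 21 in contact. Without these 2 cells the cluster's share was 86.5% ± 21.3.

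Contact at the inner KRTAP cluster exceeded that of its surroundings in the same cells. The flanks were contacted in 32.6% ± 13.5, and the difference of 51.0 points ± 20.2 (SD, n = 51) had this direction in 49 cells, the other way in 1 and neither in 1. The rest of chromosome 21 was contacted in 22.4% ± 8.34, which was 61.1 points ± 21.9 less, and lower in 50 cells. Set against its nearest 0.5 Mb on each side, the excess was 31.6 points ± 22.9. The OE over the cluster was 2.40 ± 1.02, against 1.00 ± 0.480 in the flanks and 0.690 ± 0.269 in the rest of the chromosome. Where bins were contacted, their median OE per cell was 2.61 ± 0.888 in the cluster and 2.30 ± 0.428 elsewhere on chromosome 21 (n = 50 cells). This difference of 0.310 ± 0.718 was smaller than the spread between cells, with 33 cells higher and 17 lower.

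The contacted stretch around the inner KRTAP cluster reached beyond the window on both sides. Of the 31 cells in contact over all 8 bins, the uninterrupted contact reached past the left edge in 30 and past the right edge in all, in 21 of them by more than 1 bin. Its length ran from 1.1 Mb through a median of 1.3 Mb to 2.0 Mb in cells 17 and 22, where it covered 30700001-32700000. On the right, the count fell from 43 cells at 32300001-32400000 to 25 in the next bin. From 32900001 on, no flank bin was contacted in more than 8 cells. On the left, 17 cells were in contact at 30900001-31000000 and 4 at 31000001-31100000. From there contact rose through 16 and 33 to 41 cells at 31300001-31400000, with 38 cells at 31400001-31500000 beside the window. Beyond a stretch of low contact from 30300001 to 30900000 (0 to 7 cells), a second domain began. Its 6 bins from 29500001 to 30100000 were contacted in 44 to 48 cells, among them the highest of all member bins, 29700001-29800000. Chromosome 21 had 41 bins at 80% of cells or more, of which 7 lay in the cluster and 8 in its flanks.

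The EDC was contacted rarely, in the middle of a long region without contact. At least 1 of its 17 bins was contacted in 13 of the 51 cells, and none in 38. The share of contacted bins ran from 0% through a median of 0% to 52.9% in cell 15, which had 9 contacted bins. Contact was below the rest of chromosome 1 (22.4% ± 4.88), with a difference of -17.9 points ± 10.7, lower in 49 cells and higher in 2. Of all bin and cell pairs of chromosome 1, 22.2% were contacts. Yet no bin of either flank was contacted in any cell. The nearest bin with a contact in any cell lay 2.6 Mb to the left and 3.8 Mb to the right, and the nearest reaching 20% of cells 8.7 Mb and 4.0 Mb away. By class, 11 of the 17 bins were contacted in 1 cell to under 20% of cells (17.9% of chromosome 1 bins) and 6 in none (49.9% of chromosome 1 bins). The excess of 4.50 points over the flanks is within the spread between cells (SD 10.2), which was bound to be so with 38 cells at no difference. It was shown by 13 cells, with none the other way.

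Within the EDC, contact lay in 2 stretches separated by an empty bin. The left stretch, 152100001-152400000, was contacted in 7 cells and peaked at 152200001-152300000, also with 7 cells. The right stretch, 152500001-153300000, was contacted in 10 cells and peaked at 153000001-153100000 with 8 cells, the highest count of the complex. Between them, 152400001-152500000 was contacted in no cell, with 21 reads in 7 cells. In 4 cells both stretches were contacted, in 3 only the left and in 6 only the right. The outermost bins were empty as well: the first 2, 151900001-152100000, with 16 reads in all, and the last 3, 153300001-153600000, with 6 reads. In the gene order of RefSeq the ends of the complex hold S100 genes and the middle the fused-type S100, LCE, SPRR, IVL and LORICRIN genes.

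EDC contacts in single cells were short. Adjacent contacted bins formed 20 runs, 0.195 Mb long on average, of which 7 spanned 1 bin, 11 spanned 2 and 2 were longer. The longest covered 152600001-153300000 in cell 15, 7 bins, with an OE of up to 5.07. Cell 15 had 88380 reads and the only OE over the complex of at least 1, at 1.33. Without cell 15 the contacted share was 3.53% ± 7.52, and 12 cells had a contact. At an OE of at least 2 the count was 7 cells, and at an OE of at least 0.5 it was 19. After all cells were thinned to 50978 reads it was 17, against 13 in the main setting.

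Signal measured without a threshold was higher in the EDC than in its flanks in most cells. The OE over the complex averaged 0.159 ± 0.257 (SD, n = 51) and that of the flanks 0.0136 ± 0.0250, an 11.6-fold ratio of means. The complex was higher in 37 cells, the flanks in 7, and both were at 0 in 7. The difference of 0.145 was within the SD of 0.255 over cells. The reads behind these values were 952 in the 17 bins and 113 in the 40 flank bins. Bins without a read in any cell, 1 of the 17 and 13 of the 40, have no expected number and were left out. The 11.6-fold ratio therefore compares only bins with a read. Reads of the complex were present in 41 cells, against 13 cells with a call. At 153000001-153100000, where 8 cells were in contact, 29 cells held a read.

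**Figure D3:**
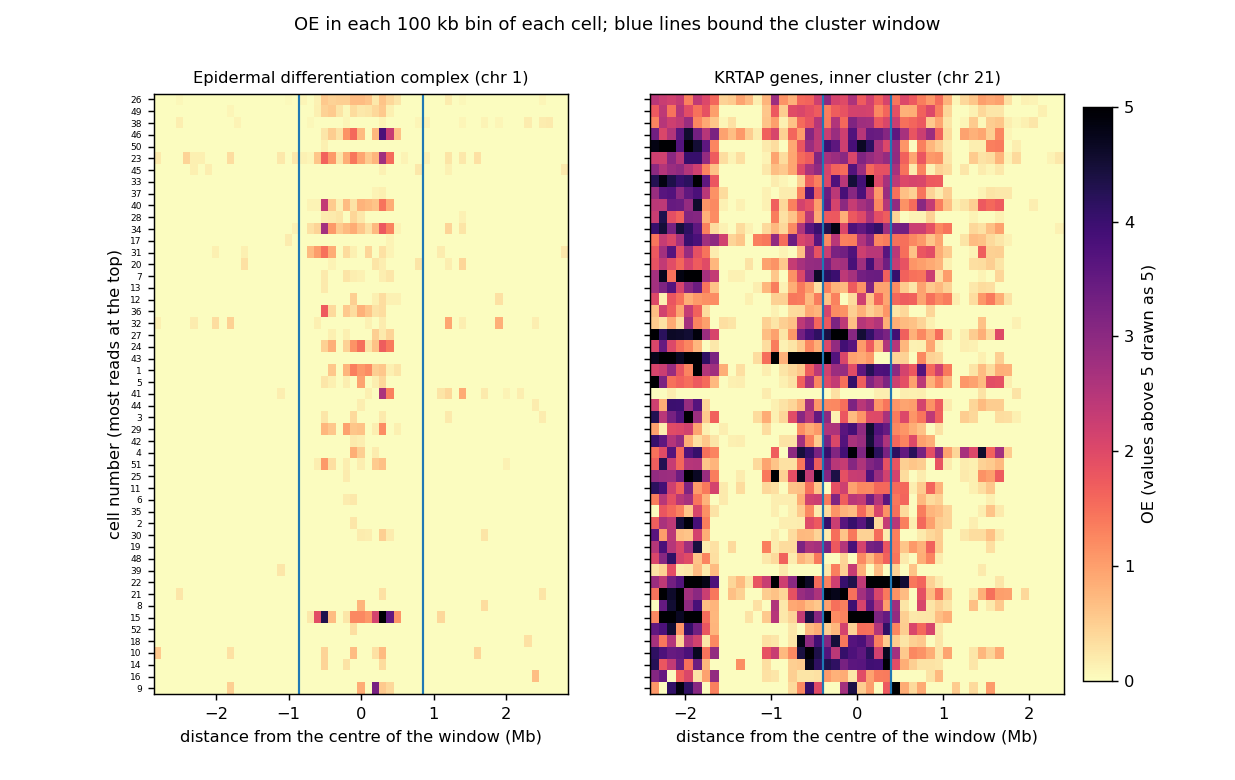
OE in each 100 kb bin (columns, by distance from the centre of the window in Mb) of each of the 51 cells (rows, by recovered reads, most at the top) for the EDC and the inner KRTAP cluster, with blue lines at the window edges and OE above 5 drawn as 5. The inner KRTAP cluster is dark in nearly every row except cells 41 and 39, while the EDC shows short marks in single rows, strongest in cell 15, between flanks at or near 0.

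The type II keratins, among them KRT5 of basal epidermis, KRT1 of the upper epidermis and KRT8 of simple epithelia, were almost never in contact. A single cell, cell 21, had contact, in 2 adjacent bins, 53100001-53200000 with 12 reads and 53200001-53300000 with 2 reads. The share of contacted bins was 0% in the other 50 cells. The other 7 of 9 bins were contacted in no cell, against 42.2% of the bins of chromosome 12, and 3 of the 9 held no read in any cell. For each of the remaining 4, 0 of 51 cells allows a share of up to 5.88% (3 counts of the total). Against the rest of chromosome 12 (27.3% ± 6.88) the difference was -26.8 points ± 7.96, lower in 50 cells. Against the flanks (1.57% ± 2.74) the difference of -1.13 points ± 4.31 was within the spread between cells, and it was 0.240 points ± 3.44 with flanks of 1 Mb. With the 2 Mb flanks 35 cells showed no difference, so the SD was bound to exceed the mean.

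The flank contacts beside the type II keratins lay at the far right. Here 4 adjacent bins from 55000001 to 55400000 were contacted in 4, 10, 13 and 3 cells, with the highest at 55200001-55300000. On the left, cell 45 alone had contact, at 52000001-52200000. The nearest bins at 80% of cells or more lay 7.4 Mb to the left and 5.6 Mb to the right of the window.

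The type I keratin and KRTAP cluster of chromosome 17, which holds KRT14 and KRT10, the partners of KRT5 and KRT1, had no contact in any cell. All 10 bins were at 0 of 51 cells, against 74.2% of the bins of this chromosome, and 1 of the 10 held no read. The 9 bins with a read allow a share of cells of up to 5.88% each. Only 27 reads fell in the cluster over all cells, in 13 cells, and the highest OE of the region in a cell was 0.0848. At an OE of at least 0.5 the count of cells in contact was still 0. Chromosome 17 has little contact altogether, in 9.54% of its bin and cell pairs, and 10.1% of its bins were contacted in 1 cell to under 20% of cells. The rest of the chromosome was contacted in 9.67% ± 3.61, more than the cluster in all 51 cells. The flanks were alike, with a single contact call, 3 reads in cell 10 at 41300001-41400000. The OE was 0.00931 ± 0.0205 in the cluster and 0.0102 ± 0.0185 in the flanks, a difference within the spread between cells. Both values leave out bins without a read, 1 of 10 in the cluster and 12 of 40 in the flanks, so no direction is read from them. No bin of chromosome 17 to the left of the window reached 80% of cells, and the nearest on the right lay 10.4 Mb away.

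The outer KRTAP cluster, the KRTAP10 and KRTAP12 genes near the end of chromosome 21, had almost no contact either. Of its 3 bins, 2 held no read in any cell. The third, 45900001-46000000, was contacted in 1 cell, cell 9, on 2 reads at an OE of 1.11, a class that holds 24.4% of chromosome 21 bins (1 cell to under 20% of cells). Cell 9 was the shallowest of the cells, and at an OE of at least 2 no cell was in contact. None of the 39 flank bins with a value was contacted in any cell (37.4% of chromosome 21 bins). Reads were absent altogether from 21 of the 39, which therefore allow no limit. The nearest bin reaching 20% of cells lay 3.5 Mb to the left. The rest of chromosome 21, which here includes the inner KRTAP cluster, was contacted in 24.0% ± 8.57, more than the outer cluster in 50 cells.

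Among the 10 pairs of clusters, the 4 that include the inner KRTAP cluster differed by more than the spread between cells. The inner cluster exceeded the outer one by 82.9 points ± 26.8 on the same chromosome, higher in 50 cells and equal in 1. Measured from the inner cluster, the EDC lay at -79.1 points ± 26.2, the type II keratins at -83.1 points ± 25.5 and the type I keratins at -83.6 points ± 25.6, each lower in 50 cells. The other 6 pairs differed by 0.218 to 4.50 points, each within its SD over cells. With 37 to 50 of the 51 cells equal in each of these pairs, the SD was bound to exceed the mean, so it decides nothing here. The EDC was above the type I keratins in 13 cells and below in none, and above the type II keratins in 13 cells and below in 1.

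**Figure D4:**
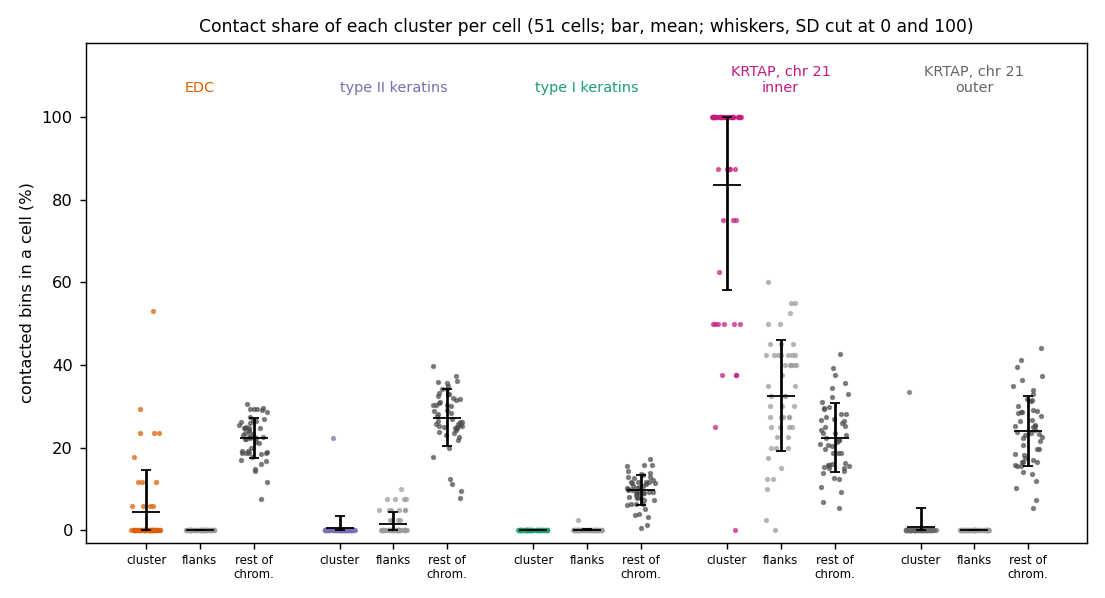
Share of contacted bins in percent in each of the 51 cells for the 5 clusters, their flanks and the rest of their chromosomes (1 point per cell, bar at the mean, whiskers 1 SD cut at 0 and 100). The inner KRTAP cluster averages 83.6% with 31 cells at 100%, whereas the other clusters lie below the rest of their chromosomes in at least 49 cells each.

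Contact at the inner KRTAP cluster varied together with other parts of chromosome 21 from cell to cell. Over the 51 cells its share and that of its left flank gave r = 0.624 (Pearson) and rho = 0.586 (Spearman), and r was 0.463 when the 2 farthest cells were left out. With the right flank r was 0.444 (rho = 0.557, 0.368 without such cells), and with the rest of the chromosome 0.565 (rho = 0.574, 0.45 without such cells). The rest includes both flanks, which hold 665 of its 3980 contact calls, so these correlations are not for separate parts. With the cell's genome share the cluster's share correlated less (r = 0.20, rho = 0.223), and with the EDC share little (r = 0.132, rho = 0.106). With the cell's recovered reads it gave r = 0.317 and rho = 0.341, more than with the genome share. These correlations describe these cells. The points share libraries, depth and total contact, and 31 of 51 cells are tied at 100%. After the genome share was subtracted from both, r with the rest of the chromosome was 0.548 (rho = 0.499, r = 0.45 without the 2 farthest cells). Subtracting the same share from both can itself add correlation, so this is no check on shared total contact. For the EDC, where 38 cells are tied at 0%, the values depended on the measure. Contact calls gave r = 0.0465 and rho = 0.0434 with the genome share, r = 0.0778 and rho = 0.157 with reads, and r = 0.121 and rho = 0.205 with the rest of chromosome 1. On the scale of log2(OE + 0.1), r was 0.322 and rho 0.381 with the genome, 0.342 and 0.341 with reads, and 0.343 and 0.484 with the rest of chromosome 1. On that scale the EDC and the inner KRTAP cluster gave r = 0.237 and rho = 0.282.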

How the data were processed

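The authors' deposited values, a ratio of observed over expected signal (OE) per 100 kb bin and cell, were used as given. Per the submitters' processing notes, cutadapt and Bowtie2 2.1.0 were used with hg19. How the expected value was made and duplicates treated is not given in the sources used here. Whole reads were recovered from the steps of the ratios, with each bin's step chosen so that its values came out whole within 0.02 reads. That 100% of values above 0 did so follows from this choice and is no check on the reads. In bins read in few cells, reads and expected number may be too small by a common whole factor, which leaves OE as it is. On simulated data over 13292 bins, 100% of values were recovered. For the median expected number of 316, an OE of 1 means 2.12 reads in cell 9, the shallowest, and 13.2 in cell 26. Of 30376 bins, 26584 had a value and the others were left out.

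The OE over a region is its recovered reads over its summed expected numbers, scaled per cell. Bins without a read in any cell have no expected number and are left out of it, which raises the OE of a region that holds such bins. Shares, differences within cells, runs and correlations were computed with Python 3.11.15, numpy 2.4.6 and scipy 1.17.1. No test was run across cells. By rule, the bins named are the highest and lowest of each cluster, the highest of each flank and runs of at least 3 bins at 80% of cells or more. Other bins named were chosen after their values were seen. Clusters, gene lists and alternatives were chosen with earlier results of these data known. Genes of the epidermis outside the windows were not analysed here. PCR reads without molecular identifiers are not independent, so the limit of 3 counts covers counting error only.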

Additional observations from a re-analysis of the deposited data

How the results depend on the processing

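Of 223 values recomputed under alternatives, 212 stayed close to the main value and 11 moved further. Close meant within 1 SD over cells for shares and differences, within 1.5-fold for counts, within the 95% Wilson interval for the share of cells in a bin, and within 0.1 for correlations. This is a wide rule for shares. In the EDC, type II and outer KRTAP clusters the SD exceeds the share itself, and EDC shares of 1.27% and 10.6% both counted as close. So did 60.8% in the inner KRTAP cluster. The type I share of 0% could not change when cells or bins were left out. The count of 212 is therefore weak evidence of stability. No value beyond its spread changed sign, but the difference of the type II keratins from their flanks, -1.13 points, was 0.0436 points with flanks of 0.5 Mb and 0.240 points with flanks of 1 Mb. Likewise, the difference between the type II keratins and the outer KRTAP cluster, -0.218 points, was 0.436 points at an OE of at least 0.5 and 0.218 points at an OE of at least 2. Without cell 9 the outer KRTAP share was 0%. At an OE of at least 2, cells with a contacted bin numbered 7 in the EDC and 0 in the outer KRTAP cluster, cells with all 8 inner KRTAP bins contacted 13, and cluster bins contacted in at least 80% of cells 0. At that threshold the highest share of cells for an EDC bin was 7.84%, and the type I and type II clusters lay -5.20 and -17.1 points from the rest of their chromosomes. These shifts follow from the stricter threshold. At an OE of at least 0.5, 2 cells had contact in the type II cluster, and the highest share of cells for an EDC bin rose to 27.5%, past the 20% that bounds its class. After all cells were thinned to 50978 reads, 19 cells had all 8 inner bins contacted, 4 cluster bins reached 80% of cells and 2 cells had contact in the type II cluster. For thinning the cause was not tested. The contact share ranged from 60.8% to 91.2% in the inner KRTAP cluster, from 1.27% to 10.6% in the EDC, and was 0 in the type I cluster throughout. The omission of cell 9, of cell 15 and of cells 39 and 41, and the counts of cells after thinning, were chosen after the data were seen. No paired analysis between groups was possible because the cells form 1 group, and differences between regions were taken within each cell. Calls in single bins are least certain in cell 9, where depth is lowest.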
